A study of Mus musculus with 14 samples.

Results

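The genes considered here were 10 genes of the bone morphogenetic protein (BMP) and activin pathway in immortalised mouse embryo fibroblasts (iMEF). They comprised 4 genes of ligand chains (Bmp2, Bmp4, Inhba and Inhbb), 3 of secreted antagonists (Grem1, Nog and Fst) and 3 target genes (Id1, Id2 and Id3). They were chosen by name, and the values analysed were the sites in and around them of histone H3 acetylated at lysine 27 (H3K27ac), which is typical of promoters and enhancers in use. A site was assigned to a gene if its middle lay in the annotated gene body or within 50 kb of either end. Of 122228 sites in the list, 145 were assigned in this way, and no site lay at more than 1 of the 10 genes.

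In these cells exon 4 of the floxed Ash2l gene was deleted by a Cre recombinase activated with 4-hydroxytamoxifen (CAGG-Cre-ER), and the ASH2L that remains is human, expressed from a lentivirus and fused to FKBP12F36V with an HA tag (clone NG3). The compound dTAG-13 links the tag to the ubiquitin ligase subunit Cereblon and so causes loss of the protein. The study sequenced 2 H3K27ac libraries each of untreated control cells and of cells kept with dTAG-13 for 30 min or for 2, 4, 8 or 16 h. In addition, 1 input library each was made from the controls and from the cells treated for 16 h. All groups are derived from 1 clone, in which the endogenous Ash2l is deleted in the controls as well. The peaks of these libraries were joined by the authors to a single list of positions, and the list used here has no value per library, replicate or time point, and the depth behind a site is unknown. All values below are therefore descriptions without replicate error or test, and a site may stem from any of the 6 H3K27ac groups. The absence of a site means only that none was listed.

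BMPs and activins are secreted dimers of the TGF-β family that assemble type I and type II receptor kinases on the cell surface. BMP receptors phosphorylate SMAD1, SMAD5 and SMAD9, activin receptors phosphorylate SMAD2 and SMAD3, and either group enters the nucleus with SMAD4. Noggin and gremlin capture BMPs outside the cell, whereas follistatin primarily captures activins. The ID proteins, which dimerise with basic helix-loop-helix factors and keep them from binding DNA, are classical early targets of BMP signalling. In fibroblasts this pathway takes part in matrix production and differentiation.

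Taken by group, the promoter cover was highest for the Id genes, although the single gene with the highest value was Inhba, and Bmp2 and Nog had no sites. All 3 Id genes, 3 of the 4 ligand genes and 2 of the 3 antagonist genes had a promoter site, that is, the middle of a site was at most 1 kb from the start of any annotated transcript. This amounted to 8 of 10 genes, compared to 54.7% of the 21755 protein-coding genes. The 8 genes were also those with any site in the region, which held for 82.0% of coding genes. Bmp2 and Nog had 0 sites. The promoter cover, the share of the 2001 bp around the annotated 5′ end that lay in sites, was 90.8% for the Id genes together, 54.9% for the antagonists and 39.1% for the ligands. These group values pool the bases of the genes, and the medians per gene were 92.0%, 78.0% and 28.3%. The median of the promoter cover over coding genes was 16.5%, with quartiles of 0% and 65.9%. A cover of at least 50% was found for 7 of the 10 genes and for 36.3% of coding genes. The 5′ end itself was inside a site for Inhba, Inhbb, Grem1, Id1 and Id3, which is 5 of 10 compared to 36.5%. With 10 genes, these shares are given as counts and not as evidence that the pathway differs from other genes.

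**Figure D1:**
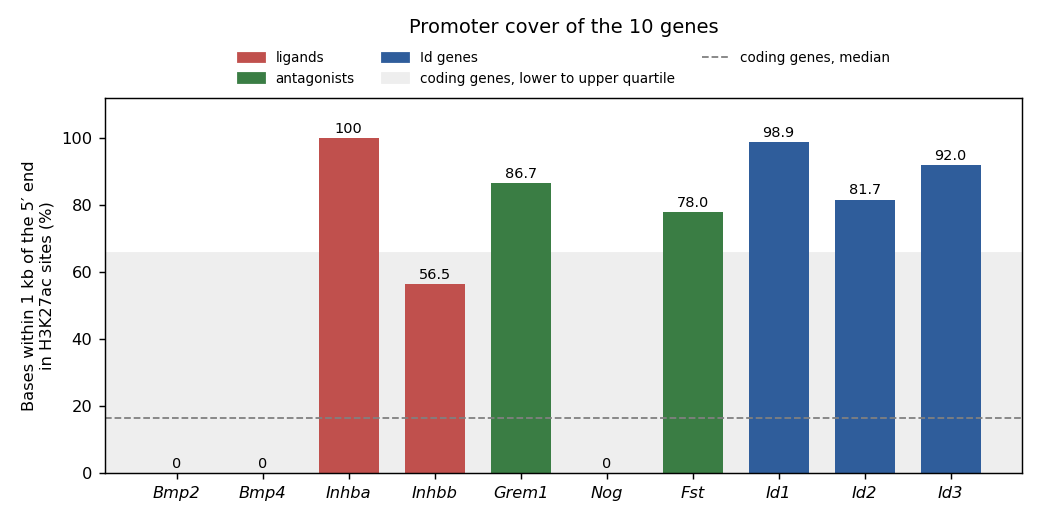
Promoter cover of the 10 genes. Bars give the share (%) of the 2001 bp around the annotated 5′ end that lies in H3K27ac sites of the joined list, coloured by group, with the coding-gene median (dashed line, 16.5%) and quartiles (grey, 0% to 65.9%). The 3 Id genes lie between 81.7% and 98.9%, while Bmp2, Bmp4 and Nog have 0%.

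The Id genes held 70 of the 145 sites (48.3%) and 61.1% of all bases in sites, although their regions were of similar size to the others (101 to 120 kb per gene). Most of these sites were at Id1 (27) and Id3 (30). Id2 had 13, fewer than Grem1 (23), Inhba (20) or Fst (14). Sites that overlapped another coding gene numbered 20 at the Id genes, 6 at the antagonists and 0 at the ligands. The ligands had 38 sites and the antagonists 37. Sites that were not promoter sites of the gene are called beyond the promoter. They include the site of 2992 bp that holds the 5′ end of Id3, as its middle lay 1.36 kb upstream. Sites beyond the promoter numbered 65 at the Id genes, 33 at the antagonists and 32 at the ligands. This contrast depended on the flank, since with 25 kb the numbers were 29, 22 and 26, and with 100 kb they were 139, 60 and 41. The medians per gene were 26, 11 and 7, compared to 6 for coding genes (quartiles 1 and 12). Their positions relative to the gene were as follows. At the Id genes 45 of these sites were upstream, 0 in the gene body and 20 downstream. At the antagonists 23 were upstream, 2 in the body and 8 downstream, and at the ligands 9, 13 and 10. The 12 body sites of Inhba accounted for most of those at the ligands. The bodies of the Id genes are short (1160 to 3342 bp), and most of each lies within 1 kb of a start. A site with its middle there counts as a promoter site, so the 0 at the Id genes says little about their bodies. The median width of a site was 572 bp at the Id genes, 414 bp at the ligands and 353 bp at the antagonists, compared to 401 bp in the whole list. Sites of more than 2000 bp made up 7.59% of the 145 and 4.32% of the list, and 8 of these 11 wide sites were at Id1 and Id3. Among them, a site of 2050 bp overlapped H13 and one of 3261 bp overlapped Bcl2l1.

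**Figure D2:**
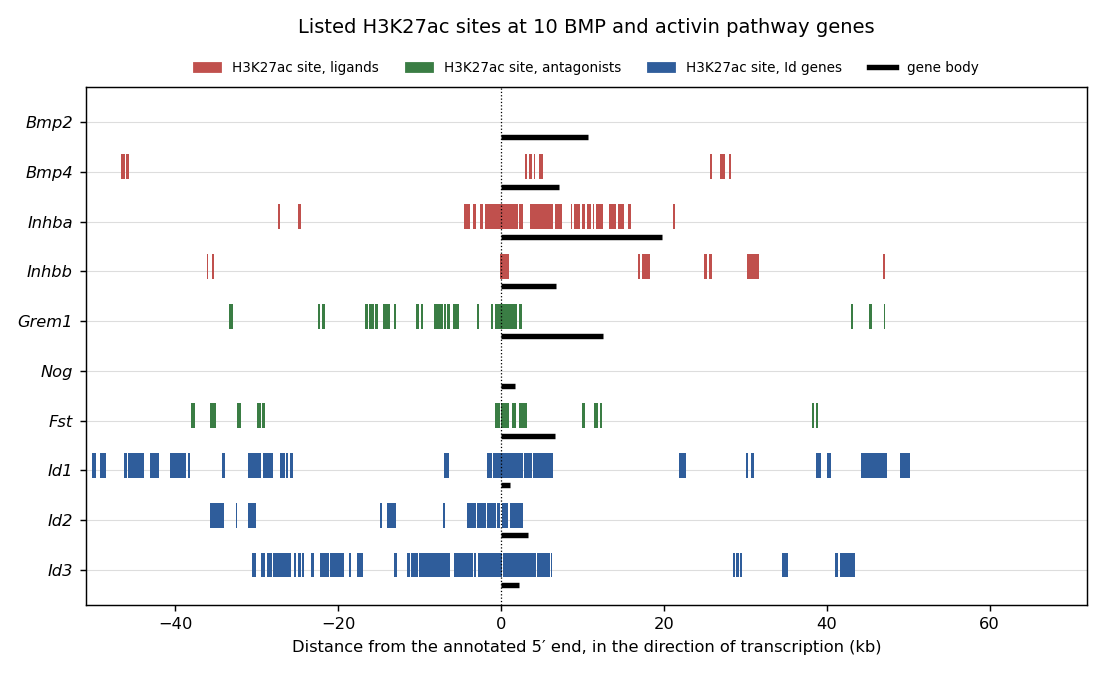
Positions of the 145 sites. The x axis gives the distance (kb) from the annotated 5′ end in the direction of transcription, each row is 1 gene, coloured blocks are sites drawn to scale and black bars are gene bodies. Bmp2 and Nog have 0 sites, Id1 and Id3 have 27 and 30, and the sites of Grem1 are mainly upstream.

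Among the ligands, Bmp2 (chr2:133552159-133562885, plus strand, GRCm38), which encodes a BMP known for its role in bone and heart, had no site in the gene body or within 50 kb. The next sites were a site of 655 bp located 704 kb upstream of the 5′ end and one of 254 bp located 114 kb downstream of it. Such a region without sites was found for 3911 coding genes (18.0%).

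Bmp4 (chr14:46383520-46390669, minus strand), whose product acts in mesoderm and in many later tissues, had 9 sites but a promoter cover of 0%. Within the gene, 4 sites of 280, 398, 210 and 574 bp followed each other between positions 2886 and 5182 downstream of the annotated 5′ end. The first 3 counted as promoter sites because of an internal transcript start at position 3365. This transcript is not coding, and the antisense gene Gm15222 starts at position 3150, inside the first of them. Since the sites do not show the direction of transcription, they cannot be assigned to one of these starts. The fourth overlapped coding sequence. No site was within 45.7 kb upstream, where 2 sites of 292 and 444 bp lay at the start of the non-coding gene Gm15221. Promoter sites without any cover at the 5′ end, as here, were found for 777 coding genes (6.53% of those with a promoter site). The last 3 sites of Bmp4 were clustered between 25.7 and 28.2 kb downstream. The widest of these (595 bp) is the broadest site at Bmp4 away from any annotated start, and its middle is shown to give the sequence of a candidate distal element. Capitals here and in all sequences below mark matches to the motifs that are spelled out after the descriptions of the genes, and a sequence without capitals had no match.
Bmp4, middle of the site, chr14:46363294-46363593, plus strand: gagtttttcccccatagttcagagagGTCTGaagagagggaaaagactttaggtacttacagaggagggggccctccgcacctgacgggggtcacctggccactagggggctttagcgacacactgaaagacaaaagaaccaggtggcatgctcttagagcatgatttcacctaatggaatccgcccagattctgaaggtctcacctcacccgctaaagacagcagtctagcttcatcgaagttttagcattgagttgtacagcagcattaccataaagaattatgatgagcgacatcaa

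Inhba (chr13:16011851-16031621, plus strand), which encodes the βA chain of activin A, had the highest promoter cover of the 10 genes with 2001 of 2001 bp. A site of 4002 bp extended from 1974 bp upstream to 2027 bp downstream of the 5′ end. It was part of a run of 7 sites with gaps below 1 kb that covered 80.8% of the 12047 bp between positions -4573 and 7473. A second run of 10 sites lay between 8557 and 15934 (65.2% in sites), and in all 55.7% of the gene body was in sites, compared to a median of 2.22% over coding genes. Thus 14 of its 20 sites were in the body, including coding exons and UTR. Several of them shared position with B230303A05Rik, a transcribed pseudogene with 3 promoter sites whose start lies at position 11572, and with Gm48444, an antisense gene with 1. Only 1 site of 284 bp was downstream of the gene. The widest site away from a start (2844 bp) had a long stretch of CT repeats in its middle.
Inhba, middle of the site, chr13:16016709-16017008, plus strand: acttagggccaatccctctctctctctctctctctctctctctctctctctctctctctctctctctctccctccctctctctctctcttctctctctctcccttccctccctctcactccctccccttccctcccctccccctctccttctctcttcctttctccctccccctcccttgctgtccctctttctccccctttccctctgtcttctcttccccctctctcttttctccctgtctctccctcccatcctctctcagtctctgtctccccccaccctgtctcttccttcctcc

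Inhbb (chr1:119415465-119422248, minus strand), which encodes the βB chain of activin B, was covered more sparsely. A single site of 1145 bp reached from -130 to 1014, which gave a promoter cover of 56.5% (28.6% within 2 kb of the 5′ end). The median over coding genes with a promoter site was 62.4%. No other site was found within 35 kb upstream or in the gene. Beyond the gene, 6 of its 9 sites (16 with a flank of 100 kb) were located between 16.8 and 47.2 kb downstream of the 5′ end, among them one of 990 bp and one of 1517 bp. The latter was wider than the promoter site.
Inhbb, middle of the site, chr1:119391156-119391455, plus strand: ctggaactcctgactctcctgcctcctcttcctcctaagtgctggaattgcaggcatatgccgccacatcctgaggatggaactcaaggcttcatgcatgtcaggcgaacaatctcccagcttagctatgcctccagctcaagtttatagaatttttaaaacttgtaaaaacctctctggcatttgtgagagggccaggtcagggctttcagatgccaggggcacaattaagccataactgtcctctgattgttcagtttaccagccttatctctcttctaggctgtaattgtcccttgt

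**Figure D3:**
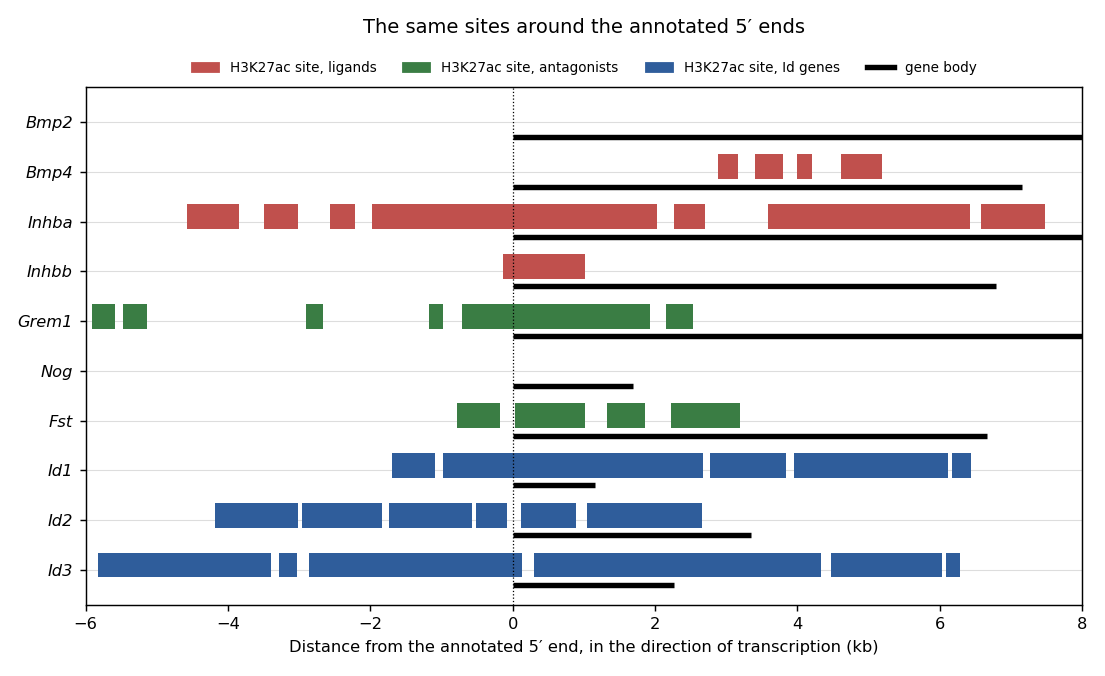
The same sites around the annotated 5′ ends. The x axis gives the distance (kb) from the 5′ end in the direction of transcription, blocks are sites drawn to scale and black bars are gene bodies. A site spans the 5′ end at Inhba, Inhbb, Grem1, Id1 and Id3, the 5′ ends of Fst and Id2 are in short gaps, and a further gap runs from 135 to 295 bp downstream at Id3.

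Among the antagonists, Grem1 (chr2:113746164-113758646, minus strand), the gene of gremlin, had 23 sites. A site of 2644 bp spanned the 5′ end from -714 to 1929, with a promoter cover of 86.7%. Of the other 22 sites, 18 were upstream, 17 of them between 33.4 and 2.67 kb before the 5′ end and the last ending 982 bp before it. These included a run of 5 sites between -16.7 and -12.9 kb and one of 6 sites between -8.27 and -5.13 kb. With a flank of 100 kb the gene had 44 sites. A median coding gene had 2 upstream sites (quartiles 0 and 4). None was a promoter site of another gene, although 3 were inside Scg5, which begins 70.5 kb upstream and had 0 promoter sites. In contrast, only 1 further site was in the gene body, and the 3 downstream sites, at 42.9 to 47.2 kb, were inside Fmn1, the formin gene next to Grem1. Fmn1 had 1 promoter site. The widest upstream site measured 824 bp.
Grem1, middle of the site, chr2:113772554-113772853, plus strand: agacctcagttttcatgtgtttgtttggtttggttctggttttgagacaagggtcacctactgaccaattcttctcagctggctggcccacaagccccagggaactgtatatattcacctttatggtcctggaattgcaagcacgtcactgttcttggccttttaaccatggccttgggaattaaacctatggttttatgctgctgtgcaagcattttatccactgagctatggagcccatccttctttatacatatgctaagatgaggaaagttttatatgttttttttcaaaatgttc

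Nog (chr11:89300638-89302332, minus strand), which encodes noggin and consists of a single exon, had 0 sites. The next sites were 275 kb upstream and 94.8 kb downstream of its 5′ end. It therefore resembled Bmp2 in this respect, and both genes had 0 promoter cover.

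Fst (chr13:114452290-114458951, minus strand), the gene of follistatin, had 14 sites (7 with a flank of 25 kb) and a promoter cover of 78.0%. With the windows of all its annotated transcripts joined, the cover was 45.1%. Its 5′ end was not inside a site but in a gap of 219 bp. A site of 596 bp ended 183 bp before the 5′ end and another of 977 bp began 37 bp after it. The antisense gene Gm47040 starts at position 288, inside the latter. Sites of 524 and 981 bp followed in the body, so that the 4 sites covered 77.4% of the 3977 bp from -778 to 3198. Apart from these, 5 sites were found 29.0 to 38.1 kb upstream and 5 between 10.0 and 38.9 kb downstream. The widest upstream site (716 bp) had 1 AP-1 motif in its middle.
Fst, middle of the site, chr13:114494184-114494483, plus strand: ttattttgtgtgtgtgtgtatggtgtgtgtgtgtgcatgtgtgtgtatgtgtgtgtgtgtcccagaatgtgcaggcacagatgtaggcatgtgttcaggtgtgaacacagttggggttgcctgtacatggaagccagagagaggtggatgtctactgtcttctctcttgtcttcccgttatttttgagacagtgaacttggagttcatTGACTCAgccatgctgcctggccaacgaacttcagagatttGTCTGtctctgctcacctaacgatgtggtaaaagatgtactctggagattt

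The Id genes are short, and sites covered 71.6% to 100% of their bodies. Id1 (chr2:152736251-152737410, plus strand) was wholly inside a site of 3647 bp (-977 to 2669), with a promoter cover of 98.9%. This site belonged to a run of 5 from -1702 to 6442 with 95.2% of bases in sites. In total, Id1 had 27 sites, and 7.16% of coding genes had as many. With a flank of 25 kb it had 7 sites, and with 100 kb 80. Its surroundings are rich in genes, and many of the sites overlapped neighbours. Of the 27 sites, 10 overlapped H13 upstream, the gene of a signal peptide peptidase, with promoter sites of H13 (1), Mcts2 (2) and the non-coding Gm26841 (1). Another 3 overlapped Bcl2l1, which encodes an inhibitor of apoptosis, and 1 overlapped Cox4i2. Between -25.6 kb and the gene, only 2 sites were listed, at -6.43 to -7.03 kb and at -1.09 to -1.70 kb.

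Id2 (chr12:25093799-25097140, minus strand) had 13 sites, all of them at the gene or upstream and 0 downstream of position 2659 (25 sites with a flank of 100 kb). A run of 6 sites covered 91.9% of the 6836 bp from -4176 to 2659. The annotated 5′ end fell in a gap of 194 bp between sites of 432 and 778 bp, and the promoter cover was 81.7%. A second gap of 153 bp was found between positions 892 and 1044. Further sites lay around -7.06, -12.9 to -14.8 and -30.1 to -35.8 kb. Those farthest upstream included 1 promoter site of the non-coding gene Gm17746, and its widest site measured 1716 bp. A start of Kidins220 is also in this region, but the 2 promoter sites of that gene were outside it.

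Id3 (chr4:136143497-136145755, plus strand) had the most sites of the 10 genes, 30 (17 with a flank of 25 kb), and 28.4% of its 102-kb region was in sites, as high as in 1.23% of coding genes. The region cover of Id1 was 26.3% and that of Id2 10.3%, compared to a median of 3.40% for coding genes. A site of 2992 bp (-2857 to 134) included the 5′ end of Id3, and a site of 4029 bp began at position 296. With their neighbours they formed a run of 9 sites from -11501 to 6288, with 92.6% of 17790 bp in sites and a promoter cover of 92.0%. A site of 3759 bp at -10.1 to -6.32 kb was part of this run. A separate run of 13 sites extended from -30.5 to -17.0 kb, and none of these overlapped another annotated gene. Of the 7 sites at 28.4 kb and more downstream, 6 overlapped E2f2, the gene of a cell cycle transcription factor, which had 3 promoter sites. Because of their width, the middles of both sites at the 5′ end of Id3 were more than 1 kb from it. Id3 was counted as having a promoter site only because of an internal non-coding start, whereas its promoter cover does not depend on this.

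RefSeq places the starts of some genes differently. The RefSeq start of Id2 is 1048 bp downstream of the 5′ end used here, where the annotation used here also lists a coding start. The RefSeq start of Id3 is 325 bp downstream. Relative to these starts, both genes had the same arrangement. The start was inside a site, 3 bp after its beginning at Id2 and 29 bp after it at Id3, and directly before that site was a gap of 153 and 161 bp, respectively. Around the RefSeq starts the cover was 89.1% for Id2 and 92.0% for Id3. For Bmp4, Inhba and Inhbb the RefSeq start was the same as the 5′ end used here and for Grem1 it differed by 2 bp, and their cover was the same. The table of RefSeq promoters used for this had no entry for Bmp2, Nog, Fst and Id1.

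The bases before the annotated 5′ ends of the Id genes are shown because these genes are classical BMP targets. At Id2 and Id3 the RefSeq start lies 1048 and 325 bp further downstream, so the stretches shown there do not directly precede it. Each of the 3 stretches directly precedes the annotated 5′ end, and each had 1 or 2 copies of the SMAD box. This box was also found in 41.0% of the 250-bp stretches upstream of coding genes.
Id1, bases before the 5′ end, chr2:152736001-152736250, plus strand: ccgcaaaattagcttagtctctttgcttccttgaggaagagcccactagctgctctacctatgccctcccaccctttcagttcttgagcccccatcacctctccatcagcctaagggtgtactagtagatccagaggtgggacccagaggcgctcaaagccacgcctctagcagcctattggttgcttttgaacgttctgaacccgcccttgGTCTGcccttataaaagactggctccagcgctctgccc
Id2, bases before the 5′ end, chr12:25097141-25097390, minus strand: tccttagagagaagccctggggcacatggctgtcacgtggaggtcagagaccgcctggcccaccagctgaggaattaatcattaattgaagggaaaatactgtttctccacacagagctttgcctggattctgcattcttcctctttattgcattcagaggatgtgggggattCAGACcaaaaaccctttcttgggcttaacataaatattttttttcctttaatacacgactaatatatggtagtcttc
Id3, bases before the 5′ end, chr4:136143247-136143496, plus strand: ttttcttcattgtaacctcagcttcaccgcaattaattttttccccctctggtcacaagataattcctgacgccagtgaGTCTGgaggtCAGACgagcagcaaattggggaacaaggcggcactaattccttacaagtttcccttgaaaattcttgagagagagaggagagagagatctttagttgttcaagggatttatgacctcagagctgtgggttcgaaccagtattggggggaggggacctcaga

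The widest sites of the Id genes away from any annotated start are shown for the same purpose as above. For Id1 the second widest was taken, since the middle of the widest (3261 bp) is in an exon of Bcl2l1.
Id1, middle of the site, chr2:152741130-152741429, plus strand: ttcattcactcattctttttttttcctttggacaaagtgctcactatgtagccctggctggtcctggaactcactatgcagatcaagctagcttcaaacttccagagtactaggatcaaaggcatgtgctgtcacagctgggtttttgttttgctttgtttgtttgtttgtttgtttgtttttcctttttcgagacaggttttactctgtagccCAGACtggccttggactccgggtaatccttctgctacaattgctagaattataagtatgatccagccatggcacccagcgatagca
Id2, middle of the site, chr12:25131894-25132193, plus strand: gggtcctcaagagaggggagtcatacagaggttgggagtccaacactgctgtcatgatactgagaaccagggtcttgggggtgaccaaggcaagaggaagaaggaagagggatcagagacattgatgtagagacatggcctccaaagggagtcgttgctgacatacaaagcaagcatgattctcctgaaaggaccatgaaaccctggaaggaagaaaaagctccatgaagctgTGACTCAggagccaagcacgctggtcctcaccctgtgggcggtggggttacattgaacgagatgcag
Id3, middle of the site, chr4:136135147-136135446, plus strand: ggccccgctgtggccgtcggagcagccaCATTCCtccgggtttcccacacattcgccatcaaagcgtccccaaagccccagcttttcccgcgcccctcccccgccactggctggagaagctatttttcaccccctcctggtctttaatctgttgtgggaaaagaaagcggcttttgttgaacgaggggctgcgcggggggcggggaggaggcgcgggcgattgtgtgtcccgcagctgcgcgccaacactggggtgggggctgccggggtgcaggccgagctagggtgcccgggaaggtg

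Several motifs were then searched on both strands of the 300 bp in the middle of each site. The SMAD box (CAGAC), which SMAD3 and SMAD4 recognise, was found in 84 of the 145 sites (57.9%), compared to 56.9% of all sites on chromosomes 1 to 19 and X and 41.0% of the 250-bp stretches upstream of coding genes. AP-1 (TGANTCA) was present in 14 sites (9.66%, compared to 12.4% of all sites), and TEAD (GGAATG) in 27 (18.6%, compared to 18.2%). Of these 27 sites, 18 were among the 70 sites of the Id genes, 5 among the 38 of the ligands and 4 among the 37 of the antagonists. The EGR motif (GCGGGGGCG) was found in 2 sites, both at Id1 (1.38%, compared to 0.465%), and the SMAD palindrome (GTCTAGAC) in 1 site at Id2, 6.96 kb upstream (0.690%, compared to 0.329%). The SMAD1/5 core (GGCGCC) was found in 7 sites (4.83%, compared to 3.45%). The shares of the first 3 motifs were thus within 3 percentage points of the whole list. These matches describe letters and not binding, and some motifs share letters, as the SMAD1/5 core is part of the BMP response element.

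Rare by comparison was the spaced BMP response element (GGCGCCNNNNNGTCT), which joins the SMAD1/5 core to the letters GTCT and is known from BMP-responsive genes. Only this spelling was searched, so variants of the element would be missed. It was present in the middle of 1 of the 145 sites, compared to 0.0205% of all sites, and in 0.0506% of the stretches upstream of coding genes. The search was afterwards extended to the whole regions of the 10 genes. This yielded 7 copies in 1072 kb, 6.53 per Mb. The rate was 0.175 per Mb for chromosomes 1 to 19 and X, which hold 447 copies, and 1.00 per Mb within the listed sites. The rate around other gene starts was not computed. Of the 7 copies, 6 were at the Id genes, 1 at Grem1 and 0 at the ligands. Because the motif is known from BMP-responsive genes, copies at the Id genes are not a separate finding about them. Sites overlapped 5 of the 7 copies, whereas 17.7% of the copies in the genome were in a site, counted by their first base. The copies in sites lay in runs near the 5′ ends. Of the bases of these runs, 86.6% (Grem1), 95.2% (Id1), 91.9% (Id2) and 92.6% (Id3) were in sites. Most sequence there thus lies in a site, and no background of like position was computed. All 7 copies are shown in the direction of the motif, with the specified letters in capitals.
Grem1, chr2:113757729-113757743, plus strand: GGCGCCtgcagGTCT
Id1, chr2:152739471-152739485, plus strand: GGCGCCtggctGTCT
Id2, chr12:25093044-25093058, minus strand: GGCGCCtgctaGTCT
Id2, chr12:25098854-25098868, minus strand: GGCGCCagagaGTCT
Id3, chr4:136140540-136140554, plus strand: GGCGCCaggctGTCT
Id3, chr4:136144793-136144807, plus strand: GGCGCCggccaGTCT
Id3, chr4:136147981-136147995, plus strand: GGCGCCcggatGTCT
The copy of Grem1 lies 910 bp downstream of the 5′ end in the first intron, inside the site of 2644 bp. That of Id1 is 3227 bp downstream of the 5′ end, beyond the gene and inside a site of 1059 bp. One of the Id2 copies is 1721 bp upstream in the site of 1167 bp, and the other is 4089 bp downstream and outside the listed sites. At Id3, the copy 1303 bp downstream lies in the site of 4029 bp and that 4491 bp downstream in the site of 1556 bp. The third, 2950 bp upstream, is in the gap just before the site of 2992 bp. Since this extension was chosen after the data had been seen, the numbers are given as a description only.

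The sequence around the 5′ ends was compared with their cover. A 5′ end was termed CpG-rich if, in the 2001 bp around it, G and C made up 50% or more and CpG dinucleotides occurred at 0.6 or more of the frequency that the base composition gives. This held for 5 of the 10 genes, Bmp2, Inhbb, Grem1, Nog and Fst. Of CpG-rich coding genes 85.4% had a promoter site, compared to 41.6% of the others. Bmp2 (GC content 59.6%, CpG ratio 0.893) and Nog (67.9%, 0.795) thus belonged to the 954 CpG-rich coding genes (14.6%) without one. Conversely, Inhba combined the highest cover with a CpG ratio of 0.399. The Id genes were close to the limit with ratios of 0.590, 0.567 and 0.595 for Id1, Id2 and Id3. At Id2 the GC content of 49.3% was also just below the limit. High cover among the 10 genes was found both with CpG-rich sequence (Grem1, Fst) and without it (Inhba), while the Id genes were borderline.

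**Figure D4:**
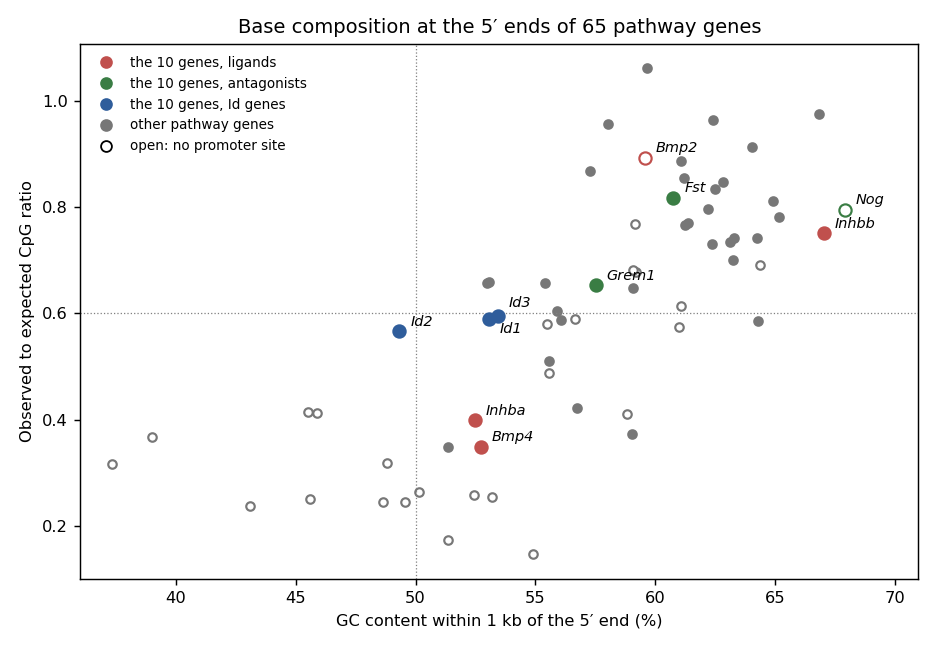
Base composition within 1 kb of the 5′ ends of the 10 genes (coloured, named) and 55 other pathway genes (grey). The x axis gives the GC content (%), the y axis the observed to expected CpG ratio, dotted lines mark 50% and 0.6, and open circles have no promoter site. Bmp2 and Nog are open circles among mainly filled ones, with CpG ratios of 0.893 and 0.795.

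The other genes of the pathway were examined by role, using a list of 55 genes. A promoter site was found for 31 of them, compared to 54.7% of coding genes. Of the 18 other ligand genes 1 had a promoter site, Gdf11, with a cover of 65.2%. The next highest cover was that of Inha (38.0%), and the median was 0%. Of the 6 other ligand genes with a CpG-rich 5′ end, likewise 1 had a promoter site. Of the 13 other antagonist genes 7 had one, with a median cover of 34.2%, led by Bmper (90.2%) and Fstl1 (72.4%). In contrast, promoter sites were found at 9 of 10 receptor genes (median cover 75.5%), led by Bmpr2 (100%) and Acvr2a (92.6%). All 8 Smad genes had one (median 90.8%), led by Smad3 (100%) and the inhibitory Smad7 (94.9%). So did all 6 other target genes (median 72.6%), led by Atoh8 (88.4%) and Dlx5 (84.5%). Of the receptor, Smad and target genes, 21 were CpG-rich, and all 21 had a promoter site.

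No site in the region was found for 5 of the 55 genes, the ligand genes Bmp7, Bmp15, Gdf2 and Mstn and the antagonist gene Sostdc1. Among the ligand genes, Inhba and Inhbb thus stood with Gdf11 as those with the 5′ end inside a site, since the 5′ end of Bmp4 was outside its sites. Whether these shares differ between roles was not tested, as the genes were chosen by name and some are neighbours that share sites, such as Inhbc and Inhbe.

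**Figure D5:**
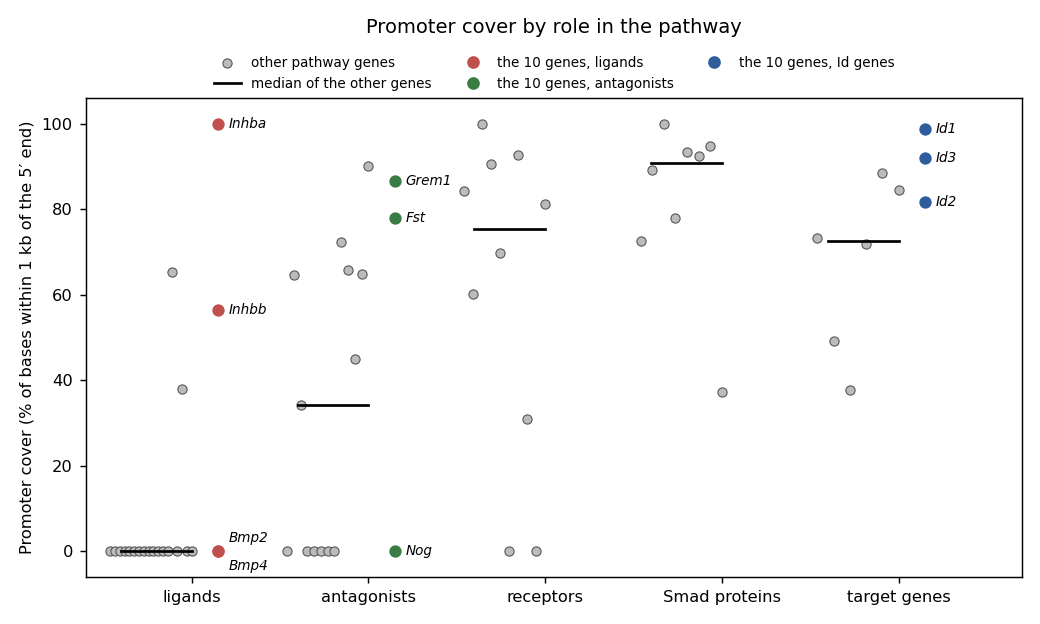
Promoter cover by role. Each point is 1 gene, with the share (%) of the 2001 bp around the 5′ end in sites on the y axis. Grey points are the 55 other pathway genes with their median per role as a bar, and coloured points are the 10 genes. The median of the other ligand genes is 0%, and that of the Smad genes 90.8%.

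Genes that mark fibroblasts were looked at to check the cell type. For 8 such genes (Col1a1, Col1a2, Col3a1, Fn1, Vim, Twist1, Prrx1 and Pdgfrb) the promoter cover ranged from 22.7% to 100%. The median over coding genes was 16.5%. By the rule on the middle of a site, 6 of the 8 had a promoter site, compared to 54.7% of coding genes. Col1a1 and Prrx1, both with a cover of 100%, did not. For 10 genes of epithelial, blood, endothelial, muscle, neuronal and pluripotent cells the cover was 0% in each case, although Cdh5 had a site at another of its starts. The lower quartile of the cover over coding genes was 0% as well.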

How the data were processed

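H3K27ac ChIP-seq was performed on 12 libraries (6 groups with 2 each), with 2 input libraries. According to the methods of the study, reads were aligned with BWA to mm10, replicates were merged, and narrow peaks were called with MACS. Per the submitters' processing notes, MACS2 was used. The file used here, as deposited by the authors, is a list of positions in bp, with a chromosome, start and end for each site, joined over all samples. Read counts, scores and sample names are not part of it, so depth and precision are unknown. The study's list of sites that changed at single time points was not analysed here, and no comparison over time was made. How peaks were joined was not given in the sources used here, and joining can widen sites.

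Starts were read as counted from 0 and are printed counted from 1. Genes were taken from GENCODE M21 and sequence from GRCm38.p6 (RefSeq), the build of the list. The authors used a later GENCODE release. Site counts, promoter sites, promoter cover, runs of sites with gaps below 1 kb, base composition and motif matches were computed in Python 3.11.15 with numpy 2.4.6 and scipy 1.17.1, and plots drawn with matplotlib 3.10.9. Backgrounds are all 21755 protein-coding genes on chromosomes 1 to 19 and X, or all sites on these. The scripts were tested on simulated sites. No statistical test was carried out, as the genes are not replicates.

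The 10 genes, the gene lists, motifs and marker genes were chosen with earlier results of these data known. By the rule for named genes, all 10 genes were described. Of the other pathway genes, the 2 with the highest promoter cover per role and those without a site were named, and of neighbours those with a start in the region and a promoter site. Inhbc, Inhbe, Scg5, Cox4i2 and Bcl2l1 were named after their values were seen. Sequences shown are the 250 bases before the 5′ ends of the Id genes and up to 300 bases in the middle of the widest site away from any start, without UTR. Alternatives comprised other flanks, windows, transcript starts, omission of narrow sites and merging of sites.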

Additional observations from a re-analysis of the deposited data

How the results depend on the processing

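No paired analysis was possible because each site lacks values per library. Of 35 comparisons of a group value with an alternative setting, 18 stayed within 1.5 times a count or within the 95% Wilson interval of a cover. The interval covers the counting of bases only, and neighbouring bases are not independent. Of 90 such comparisons for single genes, 59 stayed within these margins and 31 did not. The order of promoter cover, Id genes above antagonists above ligands, was the same in all 5 settings, the reported one included, and Bmp2 had 0 sites in each setting tried, while Nog gained 2 with a flank of 100 kb.

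With a flank of 25 kb the 10 genes had 92 sites, and those beyond the promoter numbered 29 at the Id genes, 22 at the antagonists and 26 at the ligands. With a flank of 100 kb the numbers were 255 in all and 139, 60 and 41, so the contrast between the groups beyond the promoter depended on the flank. Merging of sites less than 1 kb apart left 55 sites in all, and 12, 16 and 22 beyond the promoter at ligands, antagonists and Id genes. The promoter cover of ligands, antagonists and Id genes was 40.8%, 59.4% and 88.2% within 500 bp. Within 2 kb it was 32.0% and 41.2% for ligands and antagonists. With the windows of all annotated transcripts joined it was 40.3%, 44.4% and 93.0%. Genes with a promoter site fell from 8 to 6 when only the annotated 5′ end or only coding transcripts were used, and the genes lost were Bmp4 and Id3 in both cases. For Id3 the middles of its wide sites are over 1 kb from the 5′ end.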
